A study of Mus musculus with 8 samples.

Results

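Hyaluronan is a long, unbranched sugar polymer that cells extrude onto their surface, where in blood vessels it forms part of the glycocalyx, the coat between endothelium and blood. The 10 genes described here were listed for hyaluronan synthesis, breakdown and receptors. Each was found in the count table by its gene identifier without the version number, 10 of 10 among the 31610 genes listed. Synthases of the plasma membrane (Has1, Has2 and Has3) join the activated sugars UDP-glucuronic acid and UDP-N-acetylglucosamine. Hyal2 and Cemip2 (also named Tmem2) act at the cell surface and Hyal1 in the lysosome to cut the chain. Cd44 holds hyaluronan at the cell surface and is an adhesion receptor, while Lyve1 and the scavenger receptor Stab2 bind it on lymphatic and sinusoidal endothelium and on some macrophages. The scavenger receptor Stab1 is listed with these receptors, and its binding of hyaluronan is not taken as given here.

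RNA came from endothelial cells sorted from the lungs of C57BL/6J mice. Every mouse was given AAV, adeno-associated virus used as a vector to carry a gene into tissue. Of the 8 libraries, 4 were from mice given Control AAV and 4 from mice given nANGPTL4 AAV, which by its name carries the N-terminal part of ANGPTL4, a secreted inhibitor of lipoprotein lipase. The titles of that second group read NT Treated, which the labels leave unexplained, and the mice's age and sex, the promoter of the vector, the dose and the time after delivery are not given in the sources used here. Total counts ran from 83183122 to 114337333 per library, and the series' design text calls the 4 replicates of each group independent biological ones. Pan-endothelial markers were abundant, with a summed level over 12 genes of 23713 to 24385 CPM in Control AAV against 22707 to 23575 CPM with nANGPTL4 AAV, led by Kdr and Cldn5. CPM is a gene's count relative to its library's total, after TMM scaling for differences in RNA composition.

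The comparison asks how endothelial RNA differs between the 2 vectors. All 10 hyaluronan genes passed the low-count filter, and 0 of 10 were called at an adjusted p under 0.05 in edgeR's quasi-likelihood test, where 0.138% of the 18874 genes tested were called, 0.0477% higher and 0.0901% lower. At an unadjusted p under 0.05 the test counted 3 of 10, all lower in nANGPTL4 AAV, against 10.3% of all genes lower and 7.35% higher (18.2% lower among the 9241 genes with a mean log2 CPM of at least 3). These were the synthase Has2, the surface hyaluronidase Hyal2 and the receptor Cd44. The same 3 genes had no overlap between groups, with nANGPTL4 AAV the lower one. Such a separation downward held for 6.99% of all genes and for 12.6% of those 9241 genes. No hyaluronan gene had this separation upward, which held for 3.89% of all genes. Has2 and Cd44 kept it under each of 3 other scalings and without any 1 library, while Hyal2 lost it under each of the 3 scalings. The median log2 fold change of the 10, nANGPTL4 AAV minus Control AAV, was -0.14, beside 0.01 for all genes tested and -0.03 for those 9241 genes. DESeq2 called 1 of 10, Cd44, where it called 5.07% of all genes, 3.43% lower and 1.63% higher. By limma-voom 0 of 10 were called, where 0.111% of all genes were.

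**Figure D1:**
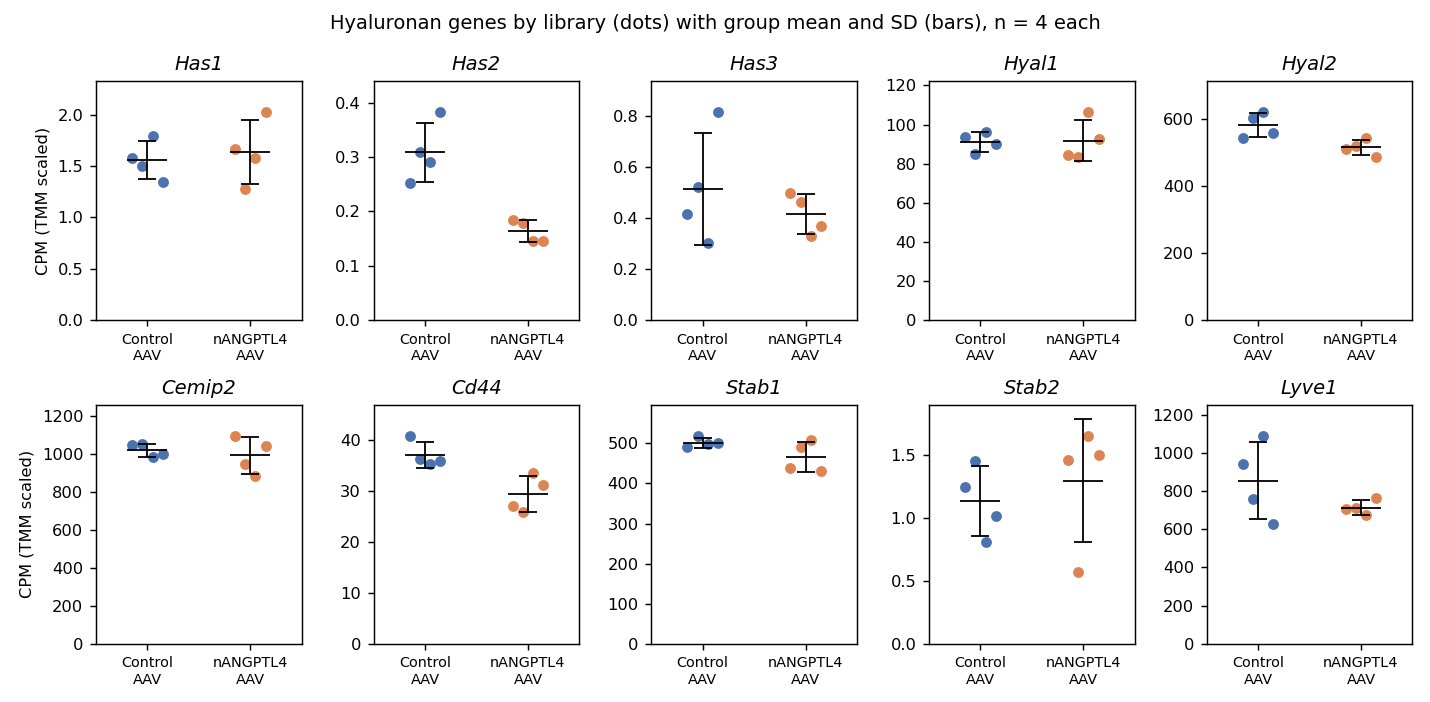
Level of each of the 10 genes in CPM (vertical axes, each from 0) in the 4 libraries of Control AAV (blue) and the 4 of nANGPTL4 AAV (orange). Dots are libraries, horizontal bars are means and whiskers are SD. In Has2, Hyal2 and Cd44 the 2 groups do not overlap, for Hyal2 by a narrow gap between 542 and 544 CPM that closes under the 3 other scalings tried.

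Per length of exon the levels spanned a wide range with a clear order. CPM per kilobase (kb) of merged exon had a median over the 8 libraries of 252 for Lyve1, 165 for Hyal2, 120 for Cemip2, 48.0 for Stab1, 24.2 for Hyal1, 5.08 for Cd44, 0.349 for Has1, 0.154 for Stab2, 0.0691 for Has3 and 0.0515 for Has2. From Lyve1 down to Stab2 each gene's lowest library lay above the highest library of the next gene in this order. Stab2 and Has3 overlapped, as did Has3 and Has2. Cutting enzymes and, apart from Cd44 and Stab2, receptors made up the upper end of this order, and the synthases lay near its bottom. Among all genes tested, Lyve1 stood at the 99.4th percentile per length, Hyal2 at the 98.9th and Cemip2 at the 98.3rd, and Has1 at the 27.0th, Has3 at the 7.53rd and Has2 at the 5.27th.

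**Figure D2:**
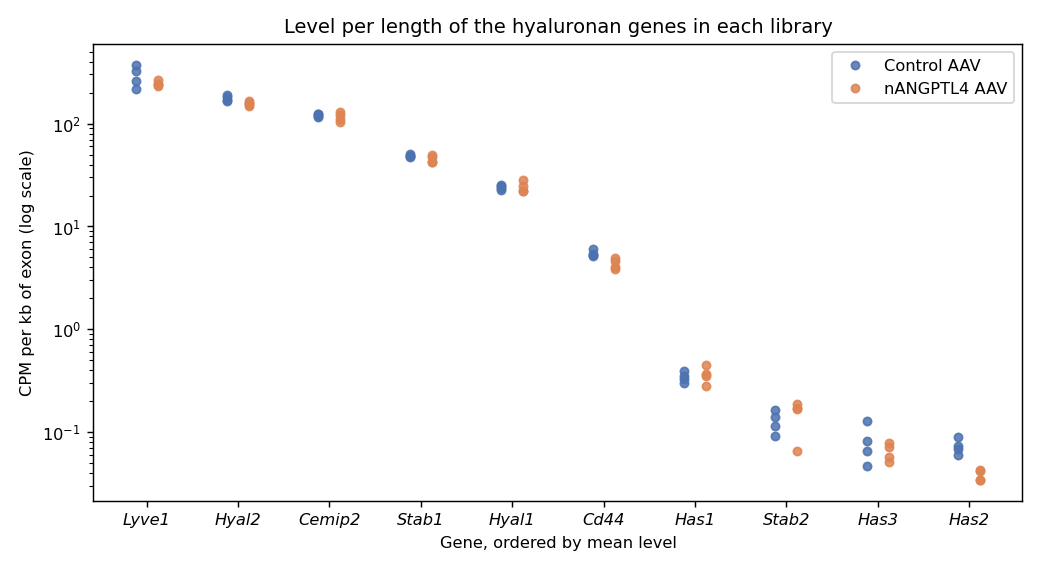
Level per kb of exon on a log axis for each gene (horizontal axis, ordered by mean level), with 1 dot per library and the groups in blue (Control AAV) and orange (nANGPTL4 AAV). Lyve1, Hyal2 and Cemip2 lie above 100 CPM per kb in all 8 libraries, and the 3 synthases below 1.

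Promoter sequences are shown for 3 of these genes, taken from RefSeq on GRCm38.p6, the mm10 build: Has1 as the synthase with the highest level, and Hyal2 and Cd44 as the abundant genes whose groups did not overlap after TMM scaling. The RefSeq table matched 6 of the 10 genes, Has1, Hyal1, Hyal2, Cd44, Stab1 and Stab2. Each window is the 250 bases before the annotated start, 5′ to 3′ on the gene's strand. Capitals mark matches on either strand to the GC box GGGCGG, the cyclic AMP response element TGACGTCA or the ETS motif CCGGAAG. The windows are chr17:17855189-17855438 (minus strand), chr9:107568913-107569162 (plus strand) and chr2:102901666-102901915 (minus strand). The RefSeq start of Hyal2 lies inside the gene as GENCODE M21 draws it, which begins at 107567945.
Has1: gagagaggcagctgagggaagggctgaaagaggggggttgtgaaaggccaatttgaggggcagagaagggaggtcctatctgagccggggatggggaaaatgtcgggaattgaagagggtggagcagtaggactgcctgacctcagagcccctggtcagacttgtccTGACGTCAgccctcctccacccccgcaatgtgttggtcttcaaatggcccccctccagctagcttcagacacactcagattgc
Hyal2: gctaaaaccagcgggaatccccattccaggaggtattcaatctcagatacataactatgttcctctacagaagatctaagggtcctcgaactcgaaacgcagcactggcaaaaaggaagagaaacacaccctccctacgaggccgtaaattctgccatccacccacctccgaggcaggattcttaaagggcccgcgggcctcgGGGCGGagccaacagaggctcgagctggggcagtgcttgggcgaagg
Cd44: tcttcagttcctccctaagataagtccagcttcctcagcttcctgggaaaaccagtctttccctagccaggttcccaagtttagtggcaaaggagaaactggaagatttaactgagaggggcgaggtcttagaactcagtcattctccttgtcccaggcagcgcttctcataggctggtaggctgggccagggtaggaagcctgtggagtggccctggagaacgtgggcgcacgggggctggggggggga

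The Has1 window holds 1 response element, from 83 to 76 bases before the start, and 1.55% of the 32851 promoter windows in the table hold one. Hyal2 holds 1 GC box from 47 to 42 bases before the start, a motif in 32.7% of windows. In the Hyal1 window 2 GC boxes share a base. The ETS motif, in 6.91% of windows, was in none of the 6. Other motifs searched were CCAAT (33.9% of windows), TATAAA (12.4%) and CACCC (52.0%). Has1 and Hyal2 each hold CACCC or its reverse complement at 2 places, Has1 holds 1 CCAAT, and none of these overlaps a capitalised match. The Cd44 window holds none of the 6 motifs. GC content was 58.0% for Has1, 55.6% for Hyal2 and 56.4% for Cd44, with a median of 52.4% over all windows. A match is a stretch of letters and says nothing about binding.

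Has2, the synthase that heart development requires and a main source of hyaluronan in many cells, was the rarest of the 10. Counts of Has2 for replicates 1 to 4 were 23, 35, 24 and 38 under Control AAV, against 17, 18, 16 and 15 under nANGPTL4 AAV. All 4 nANGPTL4 AAV libraries were below the lowest Control AAV library, in counts and after scaling. Scaled, the means were 0.309 ± 0.0545 against 0.163 ± 0.0203 CPM (SD, n = 4 each). The difference of -0.92 on the log2 scale (SE 0.23) did not pass over all genes (edgeR adjusted p = 0.0952), and over 18 alternatives it lay between -0.996 and -0.801. Summed over 4 libraries the counts were 120 in Control AAV, with an exact 95% Poisson interval of 99.5 to 143, and 66 in nANGPTL4 AAV, with one of 51.0 to 84.0. These intervals cover counting error only, and reads are not independent molecules. DESeq2 set no adjusted p for Has2. In total RNA from sorted cells, fewer cells that make a transcript and less of it per cell cannot be told apart. Has2 spans bases 56665627 to 56694539 of chromosome 15 (mm10, minus strand), and 4.29% of its exonic bases overlap the antisense RNA Has2os, which had 2 to 11 counts per library.

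Has1, a synthase of lower activity than its relatives in cell culture, had 144, 170, 148 and 134 counts in the Control AAV libraries and 154, 129, 173 and 208 in those of nANGPTL4 AAV, or 1.56 ± 0.184 against 1.63 ± 0.308 CPM (SD, n = 4 each). The highest and the lowest library, in counts and in CPM, both belonged to nANGPTL4 AAV, and the groups overlapped. Its log2 fold change was 0.07 with a 95% interval of -0.28 to 0.43 (edgeR adjusted p = 0.851). Has3, which makes shorter chains, had CPM of 0.417, 0.522, 0.302 and 0.815 under Control AAV, against 0.497, 0.464, 0.328 and 0.370 under nANGPTL4 AAV. Control AAV held both extremes of Has3. The log2 fold change of Has3 was -0.32 with a 95% interval of -0.96 to 0.32 (edgeR adjusted p = 0.605), and it ran from -0.01 without Control AAV library 4, the highest, to -0.49 without Control AAV library 3, the lowest. Of the exonic bases of Has3, 5.52% overlap Chtf8 on the other strand, which was at 48.1 ± 2.35 CPM under Control AAV and 40.9 ± 1.30 CPM under nANGPTL4 AAV (SD, n = 4 each). The strand setting of the counting is not given in the sources used here, and without strand the reads of the 2 genes there cannot be told apart.

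Taking the 3 synthases per length, their summed level was 0.498 ± 0.0198 CPM per kb in Control AAV and 0.465 ± 0.0628 CPM per kb in nANGPTL4 AAV (SD, n = 4 each). Has1 made up 69.3% ± 8.52 of it in Control AAV and 77.4% ± 5.26 in nANGPTL4 AAV. Has2 made up 14.6% ± 2.17 and 8.43% ± 1.76, with Control AAV libraries between 12.5% and 17.5% and nANGPTL4 AAV libraries between 6.37% and 10.6%. These shares rest on the same counts as the levels above and were not tested. The limit given for Has3 where it overlaps Chtf8 therefore holds for the sum and for all 3 shares.

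Hyal2, a hyaluronidase anchored on the outer face of the cell membrane that cuts long chains into fragments, had CPM of 544, 602, 620 and 557 under Control AAV, against 511, 520, 542 and 487 under nANGPTL4 AAV. The groups separated only narrowly, with nANGPTL4 AAV library 3 just under Control AAV library 1, and they overlapped under RLE, upper quartile and library size scaling and without Control AAV library 2 or 3 or nANGPTL4 AAV library 1 or 2. Means were 581 ± 36.0 against 515 ± 22.6 CPM (SD, n = 4 each), a difference of -11.3%. On the log2 scale -0.17 (SE 0.05) did not pass over all genes (edgeR adjusted p = 0.146). No 31-base stretch of its transcripts recurs in another annotated gene. Cemip2, a membrane protein with hyaluronidase activity, was the most abundant of the enzymes in CPM, with 1044, 1049, 982 and 999.6 CPM under Control AAV against 1094, 945, 883 and 1043 under nANGPTL4 AAV. Its nANGPTL4 AAV libraries bracketed all 4 Control AAV libraries. Cemip2 had a log2 fold change of -0.04 with a 95% interval of -0.19 to 0.11 (edgeR adjusted p = 0.803), and when CPM was scaled by library size without TMM it was 0.0042.

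Hyal1, the lysosomal hyaluronidase that finishes the fragments, had CPM of 93.8, 84.7, 96.1 and 90.0 under Control AAV, against 84.3, 83.6, 106 and 92.6 under nANGPTL4 AAV. The groups overlapped, with both extremes in nANGPTL4 AAV, with a log2 fold change of 0.01 and a 95% interval of -0.16 to 0.18 (edgeR adjusted p = 0.966). Hyal2, Hyal1 and Hyal3, a relative with little known activity, lie in a row on chromosome 9 on the plus strand, from 107567945 to 107572779, 107576927 to 107581710 and 107580818 to 107587359 in mm10. Naa80, which encodes the acetyltransferase of actin, covers 50.8% of the exonic bases of Hyal1 on the same strand, and 50.1% of the 31-base stretches of Hyal1 transcripts recur in it. Reads there cannot be assigned to either gene, and the counting rule is not given in the sources used here, so the level of Hyal1 is less certain than that of Hyal2. For Naa80 the groups differed by 0.02 on the log2 scale (SE 0.05), with an adjusted p of 0.865 in edgeR. Hyal3 shares 8.16% of its exonic bases with Hyal1 and 6.06% with Naa80.

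**Figure D3:**
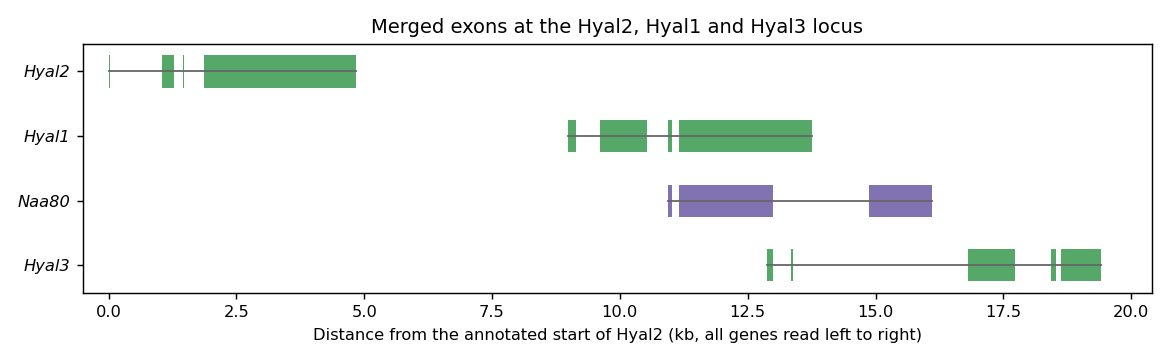
Merged exons (boxes) of Hyal2, Hyal1, Naa80 and Hyal3 against the distance from the annotated start of Hyal2 in kb, all on the plus strand. Naa80 (purple) lies over much of the exonic sequence of Hyal1, 50.8% of its bases, while Hyal2 shares none with the other genes.

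Cd44, the adhesion receptor, was below the lowest Control AAV library in each of the 4 nANGPTL4 AAV libraries. CPM of Cd44 was 40.9, 36.2, 35.2 and 35.9 under Control AAV, against 27.2, 25.9, 33.6 and 31.1 under nANGPTL4 AAV. Libraries 1 and 2 of nANGPTL4 AAV were the lowest, and library 3 came closest to Control AAV. Means were 37.1 ± 2.57 against 29.4 ± 3.53 CPM (SD, n = 4 each), a difference of -20.5%. The log2 fold change was -0.33 (SE 0.08) and did not pass over all genes (edgeR adjusted p = 0.0961). DESeq2 gave -0.33 with an adjusted p of 0.0141 and called it. Over 19 alternatives the log2 fold change of Cd44 lay between -0.39 and -0.26, and over the 17 of them with a test its adjusted p lay between 0.0141 (DESeq2) and 0.258. Of the 31-base stretches of Cd44 transcripts 0.0574% recur in other genes. The counts are 1 per gene and GENCODE M21 has 9 transcripts of Cd44, so its variant exons cannot be told apart.

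Lyve1, a receptor best known from lymphatic endothelium, was the most abundant of the 10 per length. CPM of Lyve1 was 942, 760, 1088 and 627 under Control AAV, against 707, 709, 672 and 765 under nANGPTL4 AAV. The Control AAV libraries spread widely and held the highest and the lowest value, with all 4 nANGPTL4 AAV libraries in between. Means were 854 ± 203 against 713 ± 38.5 CPM (SD, n = 4 each). The difference on the log2 scale was -0.26 with a 95% interval of -0.56 to 0.04 (edgeR adjusted p = 0.354). It was -0.11 without Control AAV library 3, the highest, and -0.38 without Control AAV library 4, the lowest. The SD of Lyve1 within groups, 0.25 on the log2 CPM scale, was at the 94.9th percentile of the 336 genes within 1 log2 CPM of its level, whose median was 0.08.

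Stab1, a scavenger receptor that takes up modified proteins and is made by sinusoidal endothelium and macrophages, had CPM of 490, 519, 497 and 500.4 under Control AAV, against 439, 491, 507 and 432 under nANGPTL4 AAV. Libraries 1 and 4 of nANGPTL4 AAV lay below the rest, and the other two lay among the Control AAV libraries. Its log2 fold change was -0.10 with a 95% interval of -0.23 to 0.02 (edgeR adjusted p = 0.386). Stab2, the endocytic clearance receptor of hyaluronan in liver, spleen and lymph node sinusoids, was low, with 113, 164, 67 and 101 counts under Control AAV and 135, 58, 181 and 154 under nANGPTL4 AAV. That is 1.13 ± 0.277 and 1.29 ± 0.488 CPM (SD, n = 4 each), and in both counts and CPM the lowest and the highest library were nANGPTL4 AAV. Stab2 had a log2 fold change of 0.19 with a 95% interval of -0.46 to 0.85 (edgeR adjusted p = 0.782). Per length, Stab1 was 304 to 522 times Stab2 in Control AAV and 245 to 729 times in nANGPTL4 AAV.

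Markers of the cells best known for Lyve1 and Stab1 were lower per length than these receptors, by widely varying amounts. Prox1, the transcription factor that defines lymphatic endothelium, was at 0.194 to 0.449 CPM per kb over the 8 libraries and Pdpn at 0.302 to 0.756 CPM per kb, where Lyve1 was at 215 to 373 CPM per kb. Flt4, which blood capillaries also express, was at 26.0 to 30.8 CPM per kb and led the 9 lymphatic markers in CPM, followed by Mmrn1. Other lymphatic markers lay between, with Ccl21a at 3.18 to 9.51 CPM per kb and Mmrn1 at 1.23 to 3.45 CPM per kb. The complement genes of tissue macrophages were close to 0, with 3 to 10 counts per library for C1qa and 3 to 20 for C1qb, and Adgre1 had 1 to 12 counts. Of 16 macrophage markers 10 had a mean under 0.2 CPM and 6 had no count in some library, Marco, Siglecf, Itgax, Cd163, Folr2 and Timd4. Others on that list were higher, led by Lyz2 with a mean of 25.4 CPM over all libraries (792 to 3968 counts per library). Cd68 followed with 5.68 CPM (410 to 759 counts). Sinusoidal markers were low as well, at 4.74 to 6.38 CPM summed over 7 genes in Control AAV and 5.22 to 6.01 CPM in nANGPTL4 AAV, led by Clec4g and by Mrc1, which is also on the macrophage list.

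**Figure D4:**
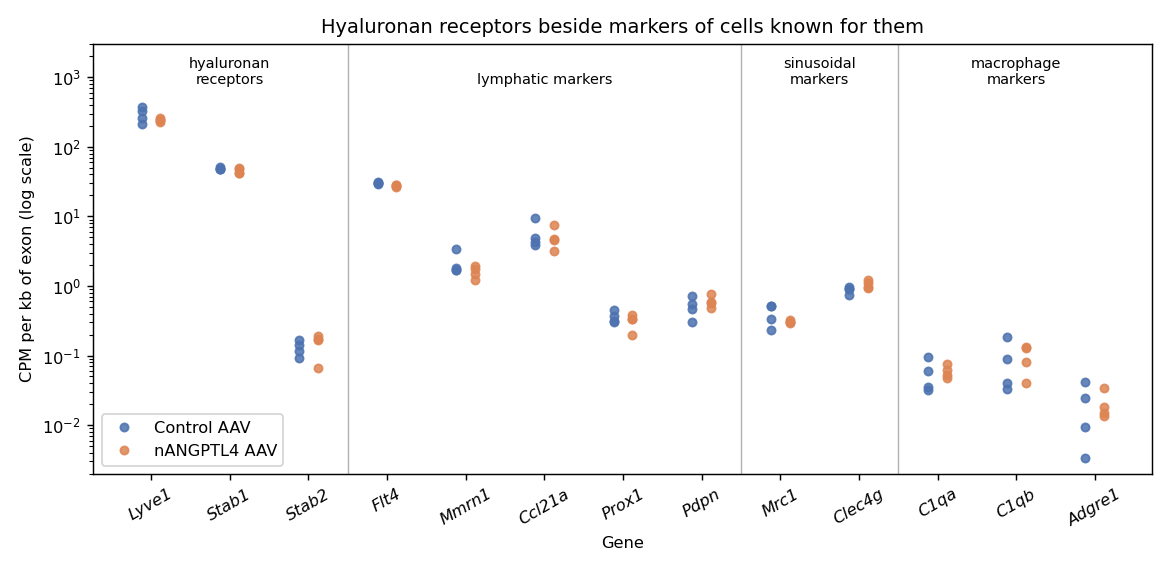
Level per kb of exon on a log axis for Lyve1, Stab1 and Stab2 (headed hyaluronan receptors) and for markers of lymphatic endothelium, sinusoidal endothelium and macrophages, with 1 dot per library (blue Control AAV, orange nANGPTL4 AAV). For Stab1 that heading follows the gene list and does not mean that it binds hyaluronan. Lyve1 and Stab1 lie above each marker shown in all 8 libraries, with Prox1 below 1 and Adgre1 below 0.1 CPM per kb. The macrophage markers shown are C1qa, C1qb and Adgre1, and Lyz2 and Cd68, which had more counts, are not drawn.

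Levels of the marker lists are given beside these results. Of all genes tested 47.8% had a negative log2 fold change, and of those with a mean log2 CPM of at least 3 the share was 62.5%. Tested markers had negative values in 11 of 12 cases for the pan-endothelial list, 7 of 9 for the lymphatic one and 3 of 5 for the sinusoidal one, and positive ones in 5 of 6 for macrophages, 5 of 5 for lymphocytes, 4 of 4 for mesothelium, 8 of 12 for fibroblasts and mural cells, 10 of 12 for epithelium and 8 of 8 for erythroid cells and platelets. EdgeR called 0 in each list, DESeq2 0 to 2 per list and limma-voom 0. At an unadjusted edgeR p under 0.05, 3 of 5 lymphocyte, 2 of 4 mesothelial and 4 of 8 erythroid and platelet markers were higher. Lower at that p were 2 of 12 pan-endothelial and 1 of 9 lymphatic markers. The other lists had 0 to 1 higher and 0 to 1 lower. Of all genes 7.35% were higher and 10.3% lower. Of those with a mean log2 CPM of at least 3, 4.25% were higher and 18.2% lower. Summed over the lymphatic list, levels ran from 263 to 287 CPM under Control AAV, against 235 to 259 CPM under nANGPTL4 AAV. Under each of the 4 scalings these groups did not overlap, as for Cd44 and Has2. Most of this sum was Flt4, with a mean of 248 CPM under Control AAV, where the list averaged 275 CPM. With nANGPTL4 AAV, Flt4 averaged 225 CPM of the list's 247 CPM. After TMM scaling Flt4 was the only marker of this list whose groups did not overlap. The sum therefore says little about the other lymphatic markers. The pan-endothelial sums given above did not overlap after TMM scaling but did under the 3 others. Mesothelial markers, 8 genes led by the keratins Krt7 and Krt19, which epithelium also expresses, went the other way, with 7.31 to 14.0 CPM against 14.7 to 16.7 CPM, as did 12 lymphocyte markers, led by Cd79a and Cd2, with 3.20 to 3.46 CPM against 3.57 to 7.31 CPM. For the remaining lists the groups overlapped. In the same order of groups, macrophage markers summed to 24.3 to 45.7 against 36.0 to 57.7 CPM. Fibroblast and mural markers, led by Col3a1 and Npnt, summed to 66.0 to 153 against 82.0 to 194 CPM, and 12 epithelial markers, led by Hopx and Sftpc, to 341 to 496 against 470 to 580 CPM. Most of the epithelial sum was Hopx, with a mean of 251 CPM of the list's 438 CPM under Control AAV. With nANGPTL4 AAV, Hopx averaged 276 CPM of the list's 524 CPM. Erythroid and platelet markers, led by Itga2b and Ppbp, summed to 45.9 to 89.0 against 74.7 to 87.2 CPM. The part of these cells in the hyaluronan results was not tested.

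Other genes of the pathway were read from the same fit, and edgeR called 0 in each of the 5 lists. The counts at an unadjusted p stand beside 10.3% lower and 7.35% higher over all genes, and 18.2% lower and 4.25% higher among genes with a mean log2 CPM of at least 3, so in lists this short 1 to 3 such genes are not read as a result about the list. Among 11 genes that supply the activated sugars, 1 was lower and 1 higher at an unadjusted p under 0.05, DESeq2 called 1 and limma-voom 0, and the median log2 fold change was -0.0004. Gfpt1, the entry enzyme of the hexosamine pathway, had means of 32.4 ± 1.92 CPM under Control AAV and 27.5 ± 1.59 CPM under nANGPTL4 AAV (SD, n = 4 each), with -0.24 on the log2 scale (edgeR adjusted p = 0.0977). Pgm3, a later step of that pathway, had a log2 fold change of 0.14 and Ugdh, which makes UDP-glucuronic acid, one of -0.11. Neither passed. The groups did not overlap for Gfpt1 and Pgm3 and did for Ugdh.

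Of 4 tested genes for other steps of breakdown, 1 was higher and 0 lower at an unadjusted p under 0.05, DESeq2 called 1 and limma-voom 0, and the median was -0.05. Hyal3 had means of 2.33 ± 0.198 CPM under Control AAV against 3.45 ± 0.525 CPM (SD, n = 4 each), with every nANGPTL4 AAV library higher. Its log2 fold change was 0.57 (SE 0.13, edgeR adjusted p = 0.0853), opposite in sign to that of its neighbour Hyal2, and DESeq2 called it with an adjusted p of 0.00327, in a range up to 0.237 over the alternatives. The lysosomal enzymes Hexa and Gusb, which remove single sugars from fragments, had log2 fold changes of -0.08 each, with overlapping groups. In the 17 tested binding proteins, 2 were higher and 1 lower at an unadjusted p under 0.05, DESeq2 called 2 and limma-voom 0, with a median of 0.04. Tlr4, an innate receptor for which hyaluronan fragments are a described ligand, had a log2 fold change of -0.24. Bcan and Itih2, of a brain proteoglycan and an inter-alpha-trypsin inhibitor heavy chain, had log2 fold changes of 0.64 and 0.90 at low levels, with means over all libraries of 0.957 and 0.160 CPM. In edgeR none of these passed, while DESeq2 called Tlr4 (adjusted p = 0.0244) and Bcan (adjusted p = 0.0317).

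Of the 10 genes for partners of Cd44 and proteases that release it, 9 had negative values (62.5% of genes with a mean log2 CPM of at least 3 did), 2 were lower at an unadjusted p under 0.05, DESeq2 called 2 and limma-voom 0, and the median was -0.09. Both were proteases that shed Cd44 from the surface. Adam10 had means of 184 ± 5.82 CPM under Control AAV against 154 ± 10.7 CPM (SD, n = 4 each), with -0.26 on the log2 scale (SE 0.05, edgeR adjusted p = 0.0691). Adam17 had 110 ± 4.75 against 98.8 ± 2.44 CPM (SD, n = 4 each), with -0.16 on the log2 scale (SE 0.04, edgeR adjusted p = 0.111). Neither pair of groups overlapped. The scaffold Iqgap1 had a log2 fold change of -0.09 with overlapping groups. Of 12 tested regulators described for Has2 or Cd44, 3 were lower at an unadjusted p under 0.05, DESeq2 called 1 and limma-voom 0, and the median was 0.01. These were the transcription factors Creb1 at -0.27, Sp1 at -0.10 and Stat3 at -0.13, with edgeR adjusted p-values of 0.0902, 0.204 and 0.217. The groups of Creb1 overlapped under upper quartile and library size scaling, and those of Sp1 under library size scaling.

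**Figure D5:**
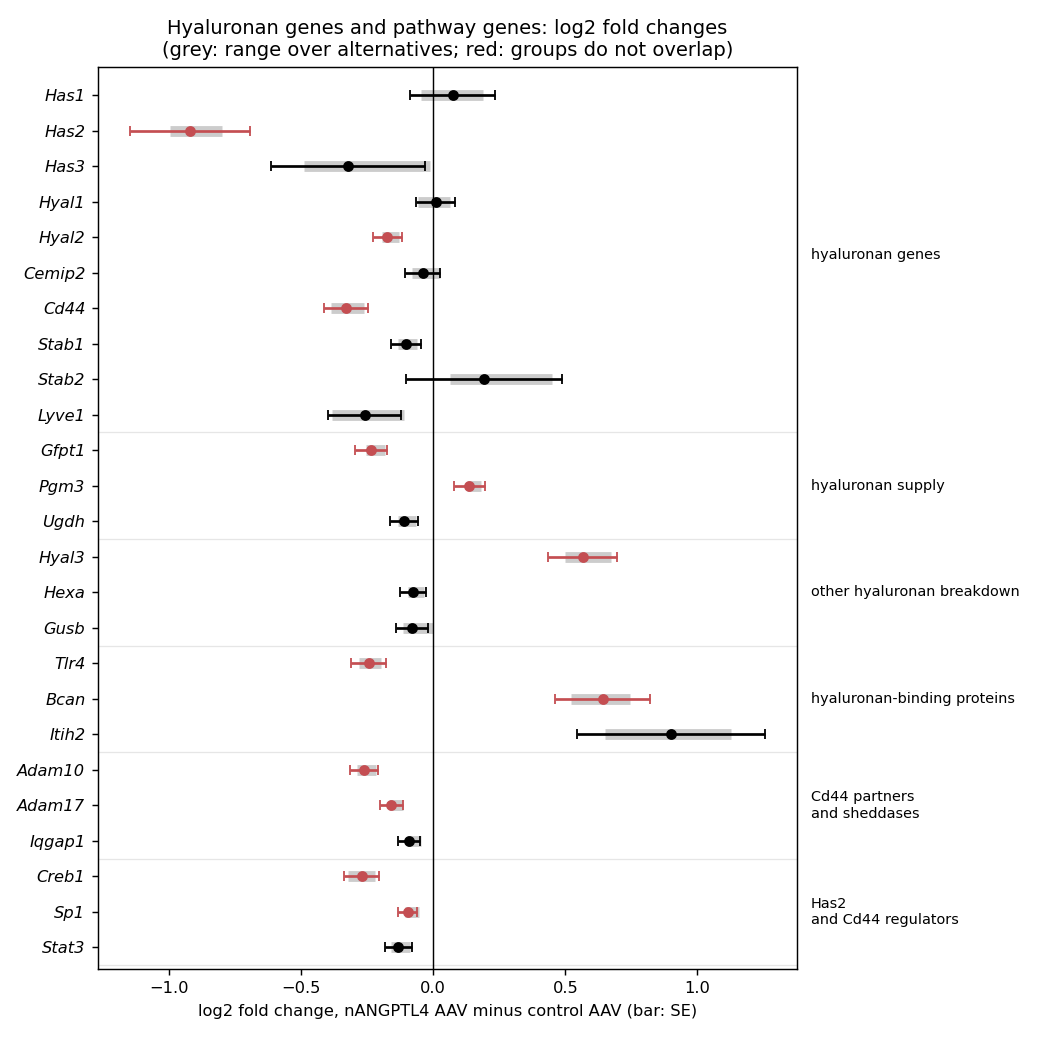
Log2 fold change, nANGPTL4 AAV minus Control AAV, for the 10 hyaluronan genes and for the 3 genes of smallest p in each pathway list, with SE as whiskers. Grey bands span the alternatives, and red marks genes whose groups do not overlap after TMM scaling (Hyal2, Creb1 and Sp1 overlap under at least 1 other): 3 hyaluronan genes, all to the left of 0, and Gfpt1, Pgm3, Hyal3, Tlr4, Bcan, Adam10, Adam17, Creb1 and Sp1.

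For the 6 hyaluronan genes with a mean log2 CPM of at least 3, the genes with the most similar profile over the 8 libraries were sought among 9033 others. The libraries share the group difference and the scaling, and picking the highest of 9033 over 8 libraries by itself favours high values. These correlations are therefore descriptive. For Cd44 the nearest genes were Brcc3 (Pearson r 0.988, Spearman rho 0.976), the fatty acid transporter Cd36 (0.986 and 0.905) and Fnip2 (0.985 and 1). For Hyal2 they were Rexo2 (r 0.989), Bcl3 (0.981) and Tubd1 (0.978), and for Lyve1 Epb41 (0.966), Nsun4 (0.952) and Tal1 (0.939). Cemip2 was nearest to Cyp51 (0.976), Erc1 (0.975) and Arl10 (0.932), Stab1 to Spryd4 (0.979), Khsrp (0.976) and March7 (0.976), and Hyal1 to Fibin (0.978), Abcc3 (0.943) and Anxa3 (0.936). When the profiles were scaled by library size without TMM, 10 of these 18 pairs were found again, and 7 of 18 after each group was centred on its own mean.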

How the data were processed

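Whole-number read counts per gene were deposited by the authors, not normalized, for 31610 genes in 8 libraries. Per the submitters' processing notes, reads were placed on mm10. The aligner, counter, strand setting and annotation are not given in the sources used here. Symbols matched 31491 identifiers, and positions and merged exon lengths came from GENCODE M21. Counts were filtered with filterByExpr (minimum count 10), scaled by TMM and tested in edgeR 4.0.16 (R 4.3.3) with the quasi-likelihood F test, group as the only term, and Benjamini-Hochberg adjustment over 18874 genes. Calls are adjusted p-values under 0.05, and a prior count of 2 entered log2 CPM. DESeq2 1.42.0, limma-voom 3.58.1 with quality weights, other scalings and filters, a replicate block and leaving out each library were alternatives. Code was tested on simulated data. The genes and lists (sugar supply, other breakdown, binding proteins, Cd44 partners, regulators, and markers of 9 cell types) were chosen with earlier results of these data known. A gene of the breakdown list is not reported here. In each pathway list the 3 genes of smallest p were named, and in each marker list the 2 of highest CPM. Prox1, Pdpn, Ccl21a, the complement genes, Adgre1 and the macrophage markers with zero counts were picked from the lists after their values were seen. P-values set the difference between groups against the spread between these libraries, which edgeR estimates with information shared across genes.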

Additional observations from a re-analysis of the deposited data

Results flagged for a closer look

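In 50 sets of 4 libraries (25 named genes in each group) the highest or lowest library was compared with the others by Dixon's ratio, which chance exceeds in about 1 of 20 sets. Stat3 in Control AAV library 4, at 357 CPM, stood apart from the others at 385 to 389 CPM (ratio 0.894, above the 95% critical value for 4 samples). None of the 10 hyaluronan genes had such a library.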

How the results depend on the processing

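The count of called hyaluronan genes was 0 in each alternative except DESeq2, where it was 1, and the count of genes with groups that do not overlap, 3 as reported, was 2 (Has2 and Cd44) under each of the 3 other scalings and 2 to 3 with a library left out. Has2 and Cd44 were among them each time, Hyal2 was not without Control AAV replicate 2 or 3 or nANGPTL4 AAV replicate 1 or 2, and Stab2 (higher) entered without nANGPTL4 AAV replicate 2. Separation under other scalings was examined after the data were seen. Of 26 genes called in all (9 higher, 17 lower), 4 (3 and 1) were called under upper quartile scaling, 4 (3 and 1) under library size alone, 17 with the stricter filter (11 lower), 956 by DESeq2 (308 and 648) and 59 by robust edgeR (16 and 43). Leaving out any 1 of the 8 libraries gave 1 to 2 called genes, 1 to 2 higher and 0 to 1 lower. With the replicate number as a block 6 genes were called (1 and 5), with -0.91 for Has2, -0.34 for Cd44 and -0.17 for Hyal2, each still not called. Deviations of same-numbered libraries correlated at 0.02, 0.04, -0.20 and -0.17. No values for differently numbered libraries were set beside these, so they cannot show whether the numbers pair the libraries. Of 25 named genes 22 kept their direction in every alternative. The others were small values near 0. The log2 fold change of Has1 ran from -0.0459 (without nANGPTL4 AAV replicate 4) to 0.189 with a library left out, that of Hyal1 from -0.0590 (without nANGPTL4 AAV replicate 3) to 0.0635, and also below 0 without Control AAV replicate 2 (-0.0140), and that of Cemip2 from -0.0801 to 0.0238 (without nANGPTL4 AAV replicate 3). Hyal1 was -0.0569 by the difference of medians, and Cemip2 was 0.000848 under upper quartile scaling and 0.0042 under library size alone. DESeq2 alone called Cd44 and 7 of the pathway genes named. The cause of these differences was not tested. Has2, Has3 and Stab2 had few counts, 15 to 181 per library, and the part of depth in their spread was not tested. The stricter filter left Has2, Has3 and Itih2 untested.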

Other observations

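Among the 6 abundant hyaluronan genes, the profile of Hyal2 over the 8 libraries was closest to that of Stab1 (Pearson r 0.766, Spearman rho 0.714), with r 0.612 after each group was centred on its own mean. Cemip2 went the opposite way to Hyal1 (r -0.607, rho -0.405, and r -0.621 when centred) and to Stab1 (r -0.522, rho -0.310, and r -0.836 when centred). Hyal1 and Cd44 had r 0.451 over all libraries and 0.791 when centred, and nANGPTL4 AAV library 3 was the highest of its group in both. Lyve1 followed none of the other abundant genes closely, with r from 0.0693 to 0.474. These are descriptions over 8 libraries that share a scaling.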
